A study of Mus musculus with 6 samples.

Results

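Semaphorins, ephrins, Slits, netrins and their receptors were measured in cultured mouse myotubes given RANKL. The 54 genes described here are all symbols of the count table that begin with Sema3 to Sema7, Plxna to Plxnd, Epha, Ephb, Efna, Efnb or Unc5, or that name a neuropilin, a Slit, a Robo receptor or netrin 1 to 4, out of 12625 genes tested. They are 17 semaphorins, 9 plexins, 2 neuropilins, 8 ephrins, 9 Eph receptors, 2 Slits, 2 Robo receptors, 2 netrins, 2 Unc5 receptors and Unc50, which matches by its letters alone. Counts and summed levels of a family cover only its genes in this count table, and other members of a family may be absent from it. The cells were C2C12, an established line of mouse myoblasts that fuse into myotubes in culture. Myotubes at 5 days of differentiation received recombinant murine RANKL (TNFSF11), a cytokine of the TNF family best known from bone, at 100 ng/ml for 72 h (3 libraries) or vehicle (3 libraries). What the vehicle held is not stated, and a single cell line stands for muscle here.

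Guidance cues are known as signals that steer growing axons, and many tissues use them to set cell position, adhesion and shape. Semaphorins act through plexins, with neuropilins as co-receptors for most of the secreted class 3. Ephrins are bound to the membrane and signal both ways when a neighbouring cell carries an Eph receptor, while Slits act through Robo receptors and netrins through DCC, neogenin and the Unc5 family. In muscle these systems are known for guiding motor axons to fibres and for the movement of muscle precursors.

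The libraries held 32732604 to 39677999 counts, and the 54 genes took 0.360% to 0.366% of the counts in vehicle libraries and 0.336% to 0.342% in RANKL libraries. Levels are given as CPM, counts scaled to library size with TMM factors, or as RPKM, which also divides by gene length, where genes are compared with each other. Fold changes are RANKL over vehicle, and a gene was called when its adjusted p in edgeR's quasi-likelihood test was under 0.05. The labels do not say whether replicates were separate cultures, so p-values measure only the spread between these libraries, which may be technical. The 17 myotube markers measured summed to 32421 to 33059 CPM under vehicle, while 7 of 10 endothelial and 11 of 15 neuronal and glial markers were not among the genes tested. Exon sequence is shared with another annotated gene on the same strand in 3 members (Nrp1, Plxnc1 and Sema4a) and on the opposite strand in 9 (Efna3, Efna4, Epha1, Ephb4, Plxna1, Plxna4, Plxnb1, Sema4c and Unc5c), whose counts are therefore less certain. In bulk RNA, fewer cells of a type and less RNA per cell cannot be told apart.

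Guidance genes that changed under RANKL mostly fell, and by small amounts. Of the 54, 16 fell and 5 rose, against 7.5% of all genes tested that fell and 5.35% that rose (12.9% called in all). Their median log2 fold change was -0.12, and that of all genes was 0.0047. No called member changed by more than 0.395 in size on the log2 scale. Of 24 receptors 10 fell and 4 rose, and of 29 ligands 6 fell and 0 rose; the difference between receptors and ligands was not tested. An unadjusted p under 0.05 was reached by 34 of the 54, and by 27.2% of all genes. The groups did not overlap in 30 members, with all RANKL libraries below all vehicle libraries in 22 and above in 8, while 31.5% of all genes did not overlap (16.6% below, 14.9% above).

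The number of calls moved with the scaling and the libraries used, for guidance genes and for all genes alike. Scaling to total counts gave 9 lower and 6 higher members, when 4.96% of all genes fell and 8.48% rose. DESeq2 gave 10 lower and 4 higher, with 6.41% and 4.24% of all genes, and limma-trend on the deposited log2 values gave 8 and 3, with 5.37% and 4.18%. With vehicle replicate 1 left out 8 fell and 3 rose (4.44% and 3.37% of all genes), with vehicle replicate 2 left out 8 fell and 6 rose (4.25% and 2.95%), and with RANKL replicate 2 left out 9 fell and 5 rose (4.72% and 3.71%). Leaving out RANKL replicate 1, the library that stood apart in several genes below, gave 15 lower and 5 higher (6.97% and 5.14%). In each of 17 alternatives 8 members fell (Ephb3, Ephb6, Plxnb2, Unc5b, Efnb1, Epha2, Efnb2 and Sema3e) and 3 rose (Robo1, Plxnd1 and Unc50). The share of all genes called in each of the 17 was not counted, so these numbers have no background to be read against.

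**Figure D1:**
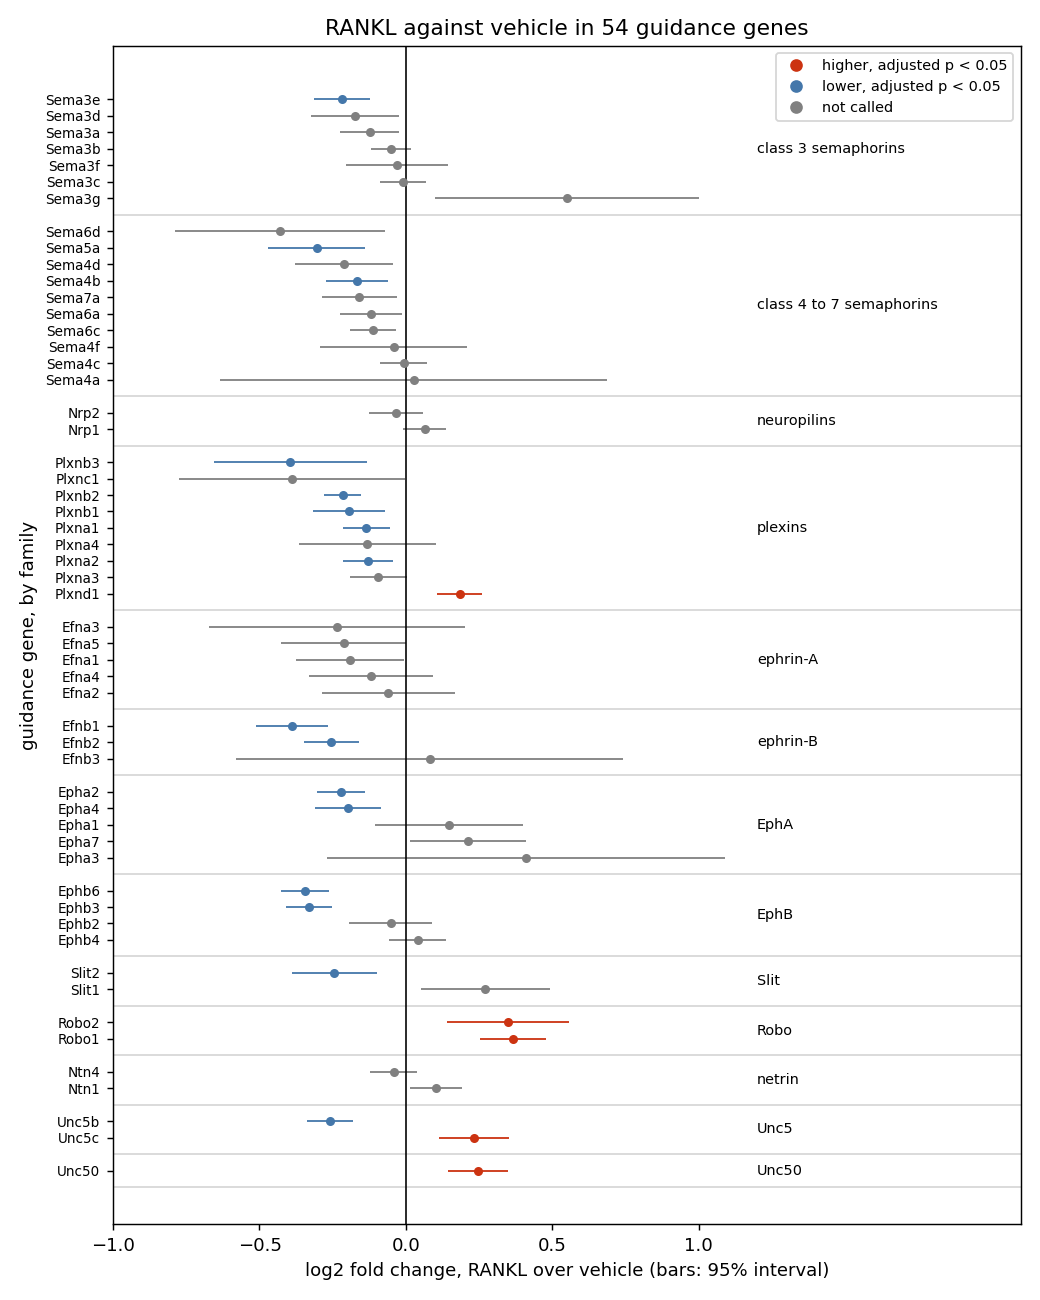
Log2 fold change of RANKL over vehicle (x axis) for the 54 guidance genes (y axis, by family), with 95% intervals from edgeR. Red points rose, blue points fell and grey points were not called. The 5 red points are Plxnd1, Robo1, Robo2, Unc5c and Unc50, and the 16 blue points all lie left of 0.

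Of the 11 genes called in every alternative, 4 were picked as examples. The sequences in front of them are shown, for Efnb2 and Unc5b, which fell, and Plxnd1 and Robo1, which rose. Each is the 250 bases before a RefSeq transcript start on GRCm38.p6, and none of the 4 meets an annotated exon. They lie at chr8:8661243-8661492 (minus strand) for Efnb2, chr10:60831582-60831831 (minus strand) for Unc5b, chr6:115995006-115995255 (minus strand) for Plxnd1 and chr16:72662899-72663148 (plus strand) for Robo1, the last at a start within the annotated gene. Capitals mark the GC box GGGCGG, the motif of Sp1, read on both strands.
Efnb2: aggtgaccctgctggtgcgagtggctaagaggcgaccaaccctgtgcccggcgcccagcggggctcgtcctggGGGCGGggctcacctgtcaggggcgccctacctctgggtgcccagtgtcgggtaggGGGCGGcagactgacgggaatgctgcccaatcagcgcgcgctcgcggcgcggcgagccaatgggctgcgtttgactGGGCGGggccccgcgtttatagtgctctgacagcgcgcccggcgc
Unc5b: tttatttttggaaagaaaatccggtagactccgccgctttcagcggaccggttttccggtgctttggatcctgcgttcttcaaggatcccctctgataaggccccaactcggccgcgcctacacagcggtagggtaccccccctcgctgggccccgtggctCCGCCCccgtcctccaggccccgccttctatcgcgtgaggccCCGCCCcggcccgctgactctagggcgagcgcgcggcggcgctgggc
Plxnd1: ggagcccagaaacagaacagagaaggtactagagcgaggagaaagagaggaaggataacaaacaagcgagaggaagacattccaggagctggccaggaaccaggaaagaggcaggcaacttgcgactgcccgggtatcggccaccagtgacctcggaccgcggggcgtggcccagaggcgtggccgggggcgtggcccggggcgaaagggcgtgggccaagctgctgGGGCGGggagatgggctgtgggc
Robo1: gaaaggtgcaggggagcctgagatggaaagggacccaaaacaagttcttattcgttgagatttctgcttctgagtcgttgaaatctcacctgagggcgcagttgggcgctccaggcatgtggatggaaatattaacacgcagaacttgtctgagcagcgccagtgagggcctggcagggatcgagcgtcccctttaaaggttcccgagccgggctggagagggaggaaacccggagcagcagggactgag
The stretch of Efnb2 held 3 GC boxes, that of Unc5b 2, that of Plxnd1 1 and that of Robo1 0. This order did not hold for the other genes called in every alternative. Among those that fell Efnb1 held 0, Epha2 1, Sema3e 2, Ephb3 2, Ephb6 5 and Plxnb2 3 and 4 in separate stretches. Unc50, which rose, held 2. RefSeq stretches were found for 46 of the 54 genes, 61 in all. The GC box stood in 70.5% of the 61, in 57.2% of 12330 stretches of all genes tested and in 32.7% of all 32851 stretches. Of the 15 genes that fell and had a stretch 13 held it (all but Efnb1 and Plxnb3), as did 2 of the 5 that rose (Plxnd1 and Unc50) and 20 of the 26 not called. These are counts of genes with a match in any stretch, while the shares before them are of stretches. By stretch the GC box stood in 15 of 17 for genes that fell, 2 of 7 for those that rose and 26 of 37 for those not called. The difference was not tested. The consensus of NF-kB, a factor family that RANKL is known to activate, was matched in 4 of the 61 stretches (6.56%, against 8.9% over all genes tested), those of Ephb2, Plxna3, Sema4a and Sema4c, which were not called. The E-box CAGCTG, which reads the same on both strands and is favoured by myogenic factors, stood in 7 of the 61 (11.5%, against 12.5%), with Ephb3, Plxnb3 and Robo2 the called genes among them. A match describes letters in this window and is not a measured site.

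Among the 7 secreted class 3 semaphorins, Sema3e fell and the others were not called. Under vehicle Sema3c had the highest level per length at 26.3 ± 0.836 RPKM (mean ± SD, n = 3), followed by Sema3b at 22.7 ± 0.330 RPKM, Sema3d at 19.2 ± 0.310 RPKM and Sema3e at 17.4 ± 0.414 RPKM. Sema3e is known to act on plexin D1 without a neuropilin. It had 118, 123 and 118 CPM under vehicle and 94.6, 105 and 108 CPM under RANKL. Every RANKL library was below every vehicle library, and RANKL replicate 1 was the lowest. The log2 fold change was -0.22 ± 0.04 (SE), with an adjusted p of 0.00513 by edgeR. Sema3e lies on chromosome 5 from 14025276 to 14256689 (mm10), the chromosome that also holds Sema3a, Sema3c and Sema3d.

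In Sema3d, too, RANKL replicate 1 was the lowest library. Sema3d had 125, 127 and 123 CPM under vehicle and 94.0, 115 and 124 CPM under RANKL, with overlapping groups. Its log2 fold change of -0.17 did not pass (adjusted p = 0.12), but passed with RANKL replicate 3 left out (-0.26, adjusted p = 0.0143) and with the GC trend removed (-0.23, adjusted p = 0.0274). Sema3a, a repellent of motor axons, stood at 45.1 ± 1.68 CPM under vehicle and 41.5 ± 2.18 under RANKL (adjusted p = 0.103, 0.0395 with RANKL replicate 3 left out and 0.0192 with the GC trend removed). Sema3c had 130.4, 135 and 126 CPM under vehicle and 131, 124 and 133 CPM under RANKL, and the 95% interval of its log2 fold change was -0.09 to 0.07, so that a change of the size seen in Sema3e lies outside it. Sema3b, at 96.6 ± 1.40 CPM under vehicle and 93.3 ± 0.575 under RANKL, and Sema3f, at 10.5 ± 0.380 CPM under vehicle and 10.3 ± 0.977 under RANKL, had log2 fold changes of -0.05 and -0.03. Sema3g had the highest fold change of the 54 (log2 0.55, 95% interval 0.10 to 1.00) but only 45 to 92 counts per library and an adjusted p of 0.103 (0.0232 with vehicle replicate 2 left out).

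Of the 10 membrane-bound semaphorins of classes 4 to 7, Sema5a and Sema4b fell and 0 rose. Sema5a carries thrombospondin repeats and binds plexins. It had 51.5, 52.9 and 47.6 CPM under vehicle and 35.0, 41.3 and 46.8 CPM under RANKL. The highest RANKL library lay just under the lowest vehicle library, and RANKL replicate 1 was farthest away. Its log2 fold change was -0.31 ± 0.08 (adjusted p = 0.0175), and -0.20 (adjusted p = 0.0204) with RANKL replicate 1 left out. The call ended with DESeq2, with limma-trend on the deposited log2 values (adjusted p = 0.0767) and when vehicle replicate 1, vehicle replicate 2 or RANKL replicate 2 was left out (adjusted p from 0.0547 to 0.0866 for the 3).

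Sema4b, a transmembrane ligand, had 32.8, 31.5 and 33.4 CPM under vehicle and 30.6, 28.3 and 28.0 CPM under RANKL. The groups did not overlap, and the log2 fold change was -0.17 ± 0.05 (adjusted p = 0.0386). This call ended with total count scaling, with DESeq2, with limma-trend on the deposited log2 values (adjusted p = 0.0735), with the GC trend removed and when any library other than RANKL replicate 1 was left out. Sema6a, a transmembrane ligand of plexins A2 and A4, had the highest level per length of the 10, at 28.9 ± 1.15 RPKM under vehicle. It had 208, 194 and 196 CPM under vehicle and 201, 178 and 172 CPM under RANKL. The groups overlapped and the log2 fold change of -0.12 did not pass (adjusted p = 0.136, but 0.00157 with RANKL replicate 1 left out).

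Sema6c, at 60.3 ± 1.37 CPM under vehicle and 55.8 ± 0.600 under RANKL, had an adjusted p of 0.0561 although its groups did not overlap. Sema4d, a ligand of plexin B1, and Sema7a, a lipid-anchored ligand of plexin C1 and integrins, had log2 fold changes of -0.21 and -0.16 (adjusted p = 0.093 and 0.0958). Sema4d passed with vehicle replicate 3 left out (-0.30, adjusted p = 0.0254) or RANKL replicate 1 left out (adjusted p = 0.0477), and Sema7a with RANKL replicate 2 left out (adjusted p = 0.0472). Sema4c, a ligand of plexin B2, stood at 64.3 ± 2.39 CPM under vehicle and 64.0 ± 0.829 under RANKL, with a 95% interval of -0.09 to 0.07. Sema6d, at 3.07 ± 0.334 CPM under vehicle and 2.29 ± 0.528 under RANKL, had a log2 fold change of -0.43 with a wide interval of -0.79 to -0.07, and passed with RANKL replicate 3 left out (adjusted p = 0.0261). Sema4f, at about 5 CPM, and Sema4a, with 13 to 23 counts per library, had log2 fold changes of -0.04 and 0.03. Over the 17 semaphorins 15 fold changes lay below 0, and 3 were called. Of all 12625 genes 6093 lay below 0, and 12.9% were called.

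Plexins, the signalling receptors of semaphorins, were led by Plxnb2, the gene with the highest level per length of all 54. Of 9 plexins 5 fell and 1 rose. Plxnb2 stood at 115 ± 1.04 RPKM under vehicle, at the percentile 95.8 of all genes tested and with 66.3% of the summed plexin level. It had 772, 759 and 761 CPM under vehicle and 653, 664 and 656 CPM under RANKL. All RANKL libraries lay below all vehicle libraries with a narrow spread within each group, and the log2 fold change was -0.22 ± 0.03 (adjusted p = 0.000286). Summed over the 9 plexins, the level per length was 171 to 177 RPKM in vehicle libraries and 154 to 156 RPKM in RANKL libraries. Plxnb2 lies on chromosome 15 from 89155549 to 89180788.

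Plxnd1, the receptor of Sema3e, was the only plexin of the 9 that rose. It had 105, 104 and 101 CPM under vehicle and 120.3, 119 and 112 CPM under RANKL. Every RANKL library was above every vehicle library, and the log2 fold change was 0.18 ± 0.04 (adjusted p = 0.0045), while that of Sema3e had the opposite sign. The stretch in front of Plxnd1, printed above, starts at the end of the annotated gene (chromosome 6 from 115954811 to 115995005, minus strand).

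Plxna1 and Plxna2, which pair with neuropilins to receive class 3 semaphorins, fell only slightly. Plxna1 had 236, 217 and 215 CPM under vehicle and 207, 200.0 and 202 CPM under RANKL. Plxna2 had 106, 104 and 96.4 CPM under vehicle and 94.9, 90.4 and 94.9 CPM under RANKL. In both the groups lay close together without overlap, with a log2 fold change of -0.13 ± 0.04 (adjusted p = 0.0309) and -0.13 ± 0.04 (adjusted p = 0.0482). Both calls ended with total count scaling, with limma-trend on the deposited log2 values (adjusted p = 0.0723 and 0.146), with the trend on length removed (-0.08 and -0.06) and when vehicle replicate 1 (-0.09 and -0.10), vehicle replicate 2, RANKL replicate 2 or RANKL replicate 3 was left out. With the GC trend removed Plxna1 stood at -0.08 (adjusted p = 0.154). The Plxna2 call also ended with DESeq2 (0.0639), limma-voom (0.0527) and a mean of at least 1 CPM (0.0505, all adjusted p).

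Plxnb1, a receptor of Sema4d, and Plxnb3, a receptor of Sema5a, also fell. Plxnb1 had 34.3, 31.2 and 32.5 CPM under vehicle and 26.4, 28.9 and 30.6 CPM under RANKL. Plxnb3 had 3.65, 3.79 and 4.31 CPM under vehicle and 2.89, 2.88 and 3.17 CPM under RANKL. Neither gene's groups overlapped, and they changed by -0.19 ± 0.06 (adjusted p = 0.0396) and -0.39 ± 0.12 (adjusted p = 0.0465) on the log2 scale. Both calls ended with total count scaling, with DESeq2, with limma-trend on the deposited log2 values (adjusted p = 0.143 and 0.112), with the length or the GC trend removed and when any library was left out, except RANKL replicate 3 for Plxnb1 (Plxnb1 at -0.13 with RANKL replicate 1 left out). With limma-voom Plxnb3 also missed the threshold (adjusted p = 0.0539). Plxnb3 had only 98 to 159 counts per library. Plxna3, Plxna4 and Plxnc1 were not called, with log2 fold changes of -0.09, -0.13 and -0.39.

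The 2 neuropilins, co-receptors that bind class 3 semaphorins and VEGF, were not called by edgeR or in any alternative. Nrp2, the higher of the pair per length (26.3 ± 0.781 RPKM under vehicle), had 218, 206 and 216 CPM under vehicle and 194, 217 and 216 CPM under RANKL. Nrp1 had 71.3, 73.9 and 73.4 CPM under vehicle and 78.3, 75.2 and 75.0 CPM under RANKL. Nrp2 groups overlapped, whereas all Nrp1 values under RANKL lay just above all vehicle values. The log2 fold changes were -0.03 (95% interval -0.12 to 0.06, adjusted p = 0.677) for Nrp2 and 0.06 (-0.01 to 0.14, adjusted p = 0.259) for Nrp1.

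**Figure D2:**
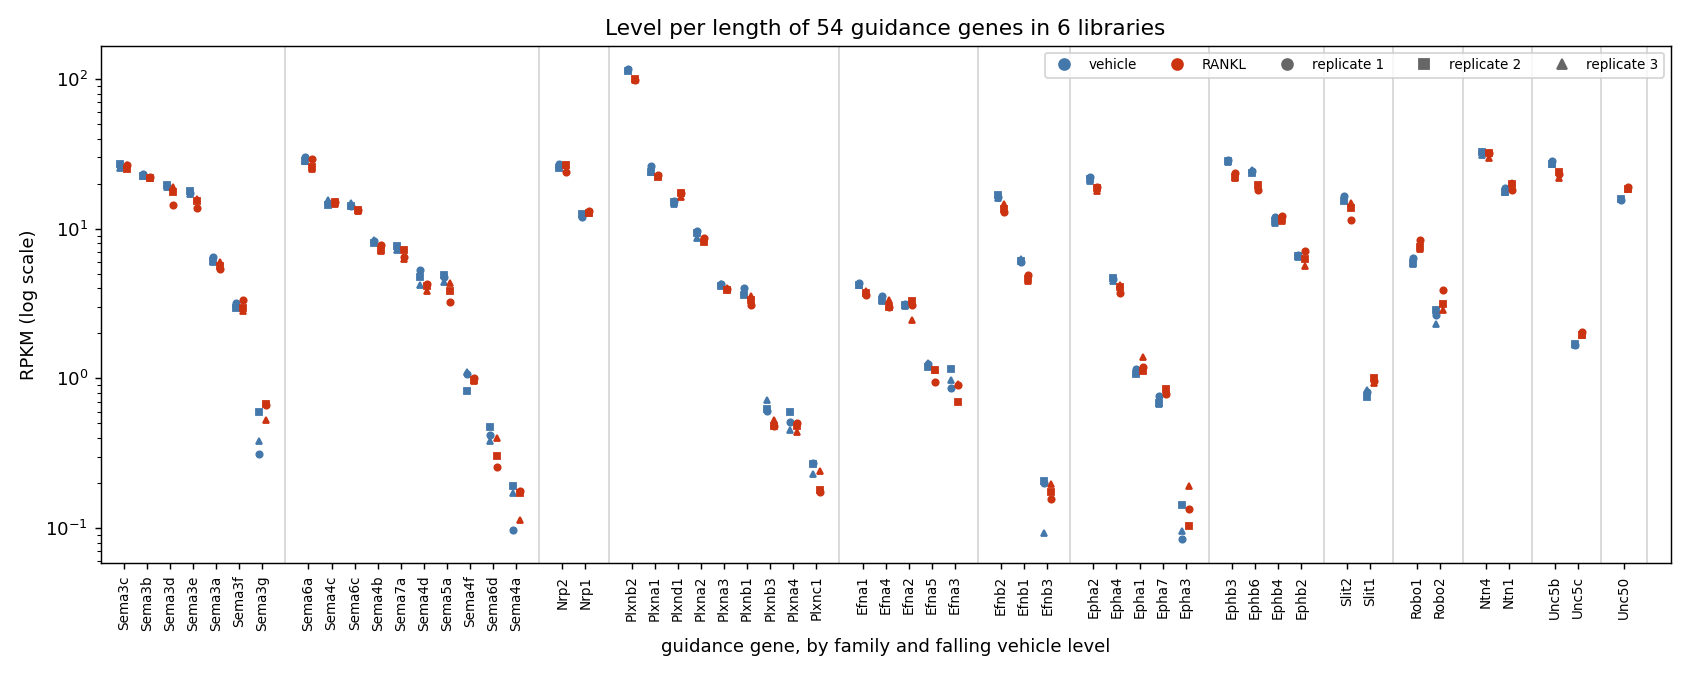
RPKM (y axis, log scale) of the 54 guidance genes (x axis, by family) in 3 vehicle libraries (blue) and 3 RANKL libraries (red), with marker shape giving the replicate. Plxnb2 stands highest and Sema4a, Efnb3 and Epha3 lowest, and levels within most families differ far more than the groups do.

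Of the 3 ephrin-B ligands, which span the membrane and can signal into their own cell, Efnb1 and Efnb2 fell. Efnb2, a ligand of EphB4 and other EphB receptors, had 70.3, 72.6 and 69.2 CPM under vehicle and 56.1, 58.4 and 63.4 CPM under RANKL. Efnb1 had 20.1, 20.4 and 21.0 CPM under vehicle and 16.4, 15.4 and 15.1 CPM under RANKL. In both, every RANKL library was below every vehicle library. The log2 fold changes were -0.25 ± 0.04 (adjusted p = 0.00182) for Efnb2 and -0.39 ± 0.06 (adjusted p = 0.000552) for Efnb1, the largest fall among ligands that were called. Efnb3 had 11 to 25 counts per library and a 95% interval of -0.58 to 0.74, so changes within that range are not excluded at this depth. Summed over the 3, the level per length was 22.4 to 23.1 RPKM in vehicle libraries and 18.0 to 19.4 RPKM in RANKL libraries. Efnb1 lies on chromosome X from 99136130 to 99148991, and Efnb2 on chromosome 8 from 8617434 to 8661242, next to the stretch printed above.

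The 5 ephrin-A ligands, which are held by a lipid anchor, were lower in level, and 0 were called by edgeR or in any alternative, with 1 at an unadjusted p under 0.05. That gene was Efna1, a ligand of EphA2 and the highest of the 5 per length at 4.25 ± 0.105 RPKM under vehicle. It had 7.18, 6.88 and 6.88 CPM under vehicle and 5.89, 6.14 and 6.34 CPM under RANKL. All RANKL libraries lay below all vehicle libraries, but the log2 fold change of -0.19 ± 0.09 did not pass (adjusted p = 0.166). The 5 fold changes lay between -0.24 for Efna3 and -0.06 for Efna2, all below 0, though Efna2 stood at 0.05 with RANKL replicate 3 left out.

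Among the 4 EphB receptors, Ephb3 and Ephb6 fell, with the smallest p-values of the 54 genes. Ephb3, a receptor tyrosine kinase for ephrin-Bs, had 119.9, 117 and 116 CPM under vehicle and 98.0, 91.9 and 90.5 CPM under RANKL. Ephb6, which lacks kinase activity, had 91.0, 89.0 and 92.2 CPM under vehicle and 67.8, 74.0 and 72.7 CPM under RANKL. Neither gene's groups overlapped. Ephb3 changed by -20.6% (log2 fold change -0.33 ± 0.04, adjusted p = 4.39e-05) and Ephb6 by -21.3% (log2 fold change -0.35 ± 0.04, adjusted p = 4.75e-05). Ephb3 lies on chromosome 16 from 21204755 to 21223305 and Ephb6 on chromosome 6 from 41605482 to 41620509.

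The other two EphB receptors were not called. Ephb4, a partner of ephrin-B2 known from veins, stood at 49.6 ± 2.50 CPM under vehicle and 51.0 ± 2.03 under RANKL, and its 95% interval of -0.06 to 0.14 does not reach the fall seen in Ephb3. Ephb2 had 32.6, 31.9 and 31.4 CPM under vehicle and 34.3, 30.7 and 27.3 CPM under RANKL, with RANKL values on both sides of the vehicle values. Summed over the 4, the level per length was 69.7 to 71.9 RPKM in vehicle libraries and 58.0 to 60.9 RPKM in RANKL libraries.

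Of the 5 EphA receptors, the highest in level, Epha2 and Epha4, fell. Epha2 made up 76.7% of the summed EphA level per length under vehicle, at 21.5 ± 0.734 RPKM. It had 87.7, 84.2 and 82.0 CPM under vehicle and 74.7, 73.1 and 70.0 CPM under RANKL. The groups did not overlap, and the fall of 0.22 ± 0.04 on the log2 scale (adjusted p = 0.0016) was called in every alternative. Epha4, which binds ephrins of both classes, had 29.0, 29.9 and 28.5 CPM under vehicle and 23.7, 25.8 and 26.7 CPM under RANKL. Its log2 fold change was -0.20 ± 0.05 (adjusted p = 0.0238), a call that ended with total count scaling (adjusted p = 0.055), with limma-trend on the deposited log2 values (adjusted p = 0.0864) and when vehicle replicate 1 or 2 or RANKL replicate 1 or 2 was left out (adjusted p from 0.0595 to 0.1). Epha1, Epha3 and Epha7 had log2 fold changes above 0 (0.15, 0.41 and 0.21), all at under 7 CPM and not called.

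Slit2, a secreted repellent, fell, and its receptors Robo1 and Robo2 rose. Slit2 held 95.2% of the summed Slit level per length under vehicle. It had 141, 130.3 and 134 CPM under vehicle and 97.9, 118 and 127 CPM under RANKL. The groups did not overlap, with RANKL replicate 1 far below the others. The log2 fold change was -0.24 ± 0.07 (adjusted p = 0.0282), and -0.14 (adjusted p = 0.025) with RANKL replicate 1 left out. The call ended with total count scaling, with DESeq2, with limma-trend on the deposited log2 values (adjusted p = 0.0793), with the length trend removed (-0.19, adjusted p = 0.0589) and when any vehicle library or RANKL replicate 2 was left out. Slit1 stood at 4.17 ± 0.215 CPM under vehicle and 5.04 ± 0.201 under RANKL without overlap but was not called (adjusted p = 0.0977, and 0.0468 with the GC trend removed).

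Robo1 and Robo2 had the largest rises among called members. Robo1 had 48.2, 44.5 and 44.2 CPM under vehicle and 63.8, 57.1 and 55.5 CPM under RANKL. Every RANKL library was above every vehicle library, RANKL replicate 1 being the highest. The 1.29-fold rise (log2 fold change 0.37 ± 0.05, adjusted p = 0.000469) was called in every alternative. Robo2 had 21.4, 22.9 and 18.7 CPM under vehicle and 31.5, 25.2 and 23.1 CPM under RANKL, where RANKL replicate 3 lay just above the highest vehicle library. Its log2 fold change of 0.35 ± 0.10 (adjusted p = 0.0302) was 0.21 (adjusted p = 0.0651) with RANKL replicate 1 left out. The call also ended with DESeq2, with limma-trend on the deposited log2 values (adjusted p = 0.107), with the GC trend removed and when vehicle replicate 1 or 3 was left out. Both genes lie on chromosome 16 from 72308306 to 73046095 for Robo1 and from 73891839 to 74411825 for Robo2, and the summed Robo level was 8.16 to 9.03 RPKM in vehicle libraries and 10.2 to 12.3 RPKM in RANKL libraries.

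The 2 netrins were well expressed and not called. Ntn4, a netrin of basement membranes, had the highest level per length of all ligands, at 32.1 ± 0.681 RPKM under vehicle. It had 77.9, 78.6 and 75.5 CPM under vehicle and 76.9, 76.9 and 71.6 CPM under RANKL, with overlapping groups and a 95% interval of -0.12 to 0.04 for the log2 fold change. Ntn1, the classical netrin of axon guidance, had 107, 102 and 101 CPM under vehicle and 104, 114 and 116 CPM under RANKL. RANKL replicate 1 lay among the vehicle values and the other two RANKL libraries above them. Its log2 fold change of 0.10 ± 0.04 did not pass (adjusted p = 0.118), but passed with total count scaling, with the GC trend removed and with RANKL replicate 1 left out (0.15, adjusted p = 0.00866).

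The 2 Unc5 receptors, which convey repulsion by netrins, moved in opposite directions. Unc5b, with 94.2% of their summed level per length, had 166, 159 and 159 CPM under vehicle and 136, 140.2 and 129 CPM under RANKL. The RANKL libraries were all below the vehicle libraries, and the fall was 0.26 ± 0.04 on the log2 scale (adjusted p = 0.000418). Unc5c had 15.6, 15.9 and 15.7 CPM under vehicle and 19.0, 18.1 and 18.2 CPM under RANKL. Its groups were tight and did not overlap, and the log2 fold change was 0.23 ± 0.06 (adjusted p = 0.0141). The Unc5c call ended with vehicle replicate 1 left out (adjusted p = 0.0531) and with limma-trend on the deposited log2 values (adjusted p = 0.107). Unc50, a Golgi membrane protein and no netrin receptor, had 22.1, 22.4 and 22.2 CPM under vehicle and 26.9, 26.1 and 26.0 CPM under RANKL. All its RANKL libraries were above all vehicle libraries (log2 fold change 0.25 ± 0.05, adjusted p = 0.00361).

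**Figure D3:**
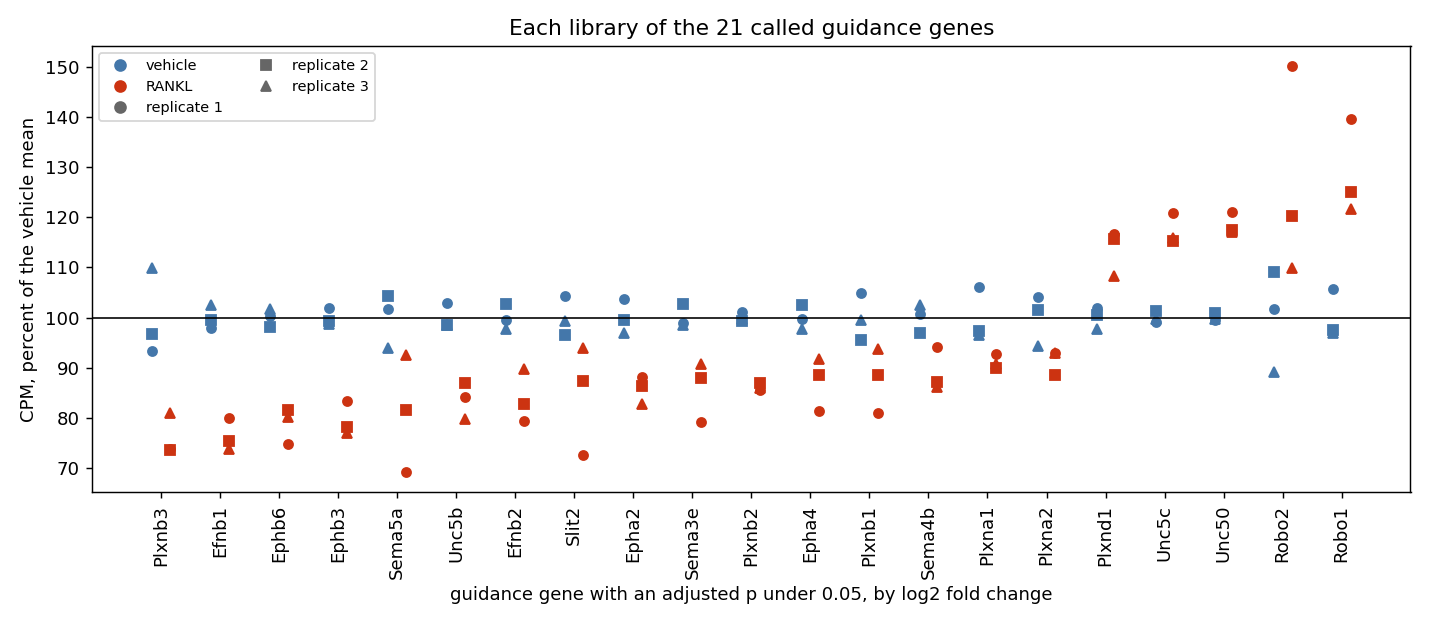
CPM of each library as a percent of the vehicle mean (y axis) for the 21 called guidance genes (x axis, by log2 fold change), with vehicle in blue, RANKL in red and the replicate as marker shape. No gene's groups overlap, and RANKL replicate 1 (red circle) lies farthest from 100% in Sema5a, Slit2, Robo2 and Robo1, among others.

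Genes known to work beside or below these receptors were read from 4 lists, whose members were called in both directions. Of all genes tested 7.5% fell and 5.35% rose, the background for the counts of these lists and of the cell markers. The 4 lists had median gene lengths of 4184 to 5098.5 bases, against 2958 over all genes. Among all genes of 3469 to 4959 bases 9.35% fell, and among longer ones 15.7%. Of 36 Eph and ephrin effectors 10 fell and 2 rose. The 2 with the smallest p were Inppl1, a lipid phosphatase, at 582 ± 12.2 CPM with vehicle and 511 ± 13.1 with RANKL, and Tns1 (tensin 1), which links integrins to actin, at 617 ± 20.7 CPM with vehicle and 542 ± 13.2 with RANKL. On the log2 scale they changed by -0.19 ± 0.03 (adjusted p = 0.00149) and -0.19 ± 0.03 (adjusted p = 0.0025). Of 25 Slit and Robo effectors 6 fell and 1 rose. Srgap1, a GTPase-activating protein bound by Robo receptors, stood at 45.5 ± 1.90 CPM with vehicle and 35.8 ± 0.841 with RANKL (log2 fold change -0.35 ± 0.04, adjusted p = 0.000171). Ext1, which builds the heparan sulphate that Slits bind, stood at 252 ± 7.31 CPM with vehicle and 298 ± 3.24 with RANKL (0.24 ± 0.03, adjusted p = 0.000223).

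Of 26 netrin partners and effectors 6 fell and 1 rose. Cdon, a cell surface protein that promotes myogenic differentiation, stood at 554 ± 21.8 CPM with vehicle and 468 ± 8.34 with RANKL (log2 fold change -0.24 ± 0.03, adjusted p = 0.000407). Ablim3, an actin-binding protein, had a log2 fold change of -0.31 ± 0.05. Of 28 semaphorin and plexin partners 4 fell and 3 rose. Vegfc, a lymphatic growth factor that can bind neuropilins, stood at 3.78 ± 0.240 CPM with vehicle and 10.7 ± 0.800 with RANKL, a 2.85-fold rise (adjusted p = 1.34e-07), and Micall2, a MICAL-like adaptor, rose 1.85-fold. The medians of the 4 lists lay between -0.06 and -0.04, against 0.0047 over all genes and -0.12 over the guidance genes.

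Markers of differentiated muscle and of cycling cells moved in the same comparison. Of 17 myotube markers 8 fell and 0 rose, those with the smallest p being Myh8, a perinatal myosin (-0.35 ± 0.05 on the log2 scale), and Cacna1s, the voltage sensor of the calcium channel (-0.22 ± 0.03). Their summed level was 32421 to 33059 CPM in vehicle libraries and 29620.0 to 31039 CPM in RANKL libraries. All that fell except Acta1 are among the 2525 longest genes tested, of which 15.7% fell. The 9 myotube markers not called, all shorter, had log2 fold changes from -0.09 (Tmem8c) to 0.19 (Mybpc2), with Myog at 0.007. The part of gene length in the marker changes was not tested. Of 19 markers of myoblasts, reserve cells and cycling cells 8 rose and 3 fell. Those that rose were cell cycle genes, with Mki67 at 0.55 ± 0.06 and Cdk1 at 0.51 ± 0.07, and Cd34 (0.30). Those that fell were Spry1 (-0.34), Notch1 (-0.27) and Hes1 (-0.23), and the myoblast markers Pax7 and Myf5 were not called. The 19 markers summed to 411 to 436 CPM in vehicle libraries and 428 to 474 CPM in RANKL libraries. The part of these markers in the guidance genes' changes was not tested.

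Markers of other cell types were among the genes tested only in part. The count table holds only genes whose third-highest library had at least 0.4995 CPM. Of 4 neuronal and glial markers tested, Tubb3 and Map2 rose (log2 0.21 and 0.22). The 4 summed to 54.8 to 60.8 CPM in vehicle libraries and 62.9 to 71.3 CPM in RANKL libraries. Snap25, Syp, Rbfox3 and Sox10 were among those absent from the count table. Of 7 fibroblast markers Col3a1 rose (log2 0.19), and 6 were not called. The 7 summed to 4433 to 4684 CPM in vehicle libraries and 4908 to 5487 CPM in RANKL libraries, most of it Col3a1 (3728 CPM under vehicle). Of 4 macrophage and osteoclast markers Mmp9 rose, from 0.261 ± 0.143 to 0.775 ± 0.119 CPM. It lay near the floor of 0.4995 CPM and could meet it only through its RANKL libraries, so its rise is in part set by that floor. The 4 markers summed to 5.04 to 5.42 CPM in vehicle libraries and 6.73 to 7.64 CPM in RANKL libraries. Ptprc, Csf1r and Adgre1 were not among the genes tested. The 3 endothelial markers measured summed to 2.95 to 3.58 CPM in vehicle libraries and 2.82 to 3.53 CPM in RANKL libraries.

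Guidance genes are long, and in these libraries long genes fell more often than short ones. By the gene lengths behind the authors' log2 values, the 54 genes had a median length of 5136 bases, against 2958 over all genes. Of the 2525 longest genes (4959 bases and more) 15.7% fell and 5.94% rose, and the 28 guidance genes among them had 10 that fell and 4 that rose. Of the 2525 shortest genes 1.86% fell and 5.15% rose, with 4 guidance genes among them. Across all 12625 genes, length and log2 fold change had a Spearman correlation of -0.19 and, with log2 length, a Pearson r of -0.12. Across the 54 guidance genes these were -0.08 and -0.05. They describe genes of the same 6 libraries, which are not independent replicates. The share that fell was also high among well expressed genes: of the 2525 genes highest in CPM 18.9% fell, and of the 14 guidance genes there 7 fell.

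With each library's trend on length removed, 11 guidance genes fell and 6 rose, against 7.26% and 6.66% of all genes. The 11 were all among the 16 named above, and those lost were Plxna1, Plxna2, Plxnb1, Plxnb3 and Slit2. The 5 that rose stayed called, and Ntn1 joined them (0.13, adjusted p = 0.0271). Robo1 then stood at 0.41, Robo2 at 0.40 and Unc5c at 0.29 on the log2 scale, above their values without correction. Ephb3 stood at -0.32, Ephb6 at -0.34 and Efnb1 at -0.38, close to theirs. The median over the 54 was -0.07, against 0.0035 over all genes.

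**Figure D4:**
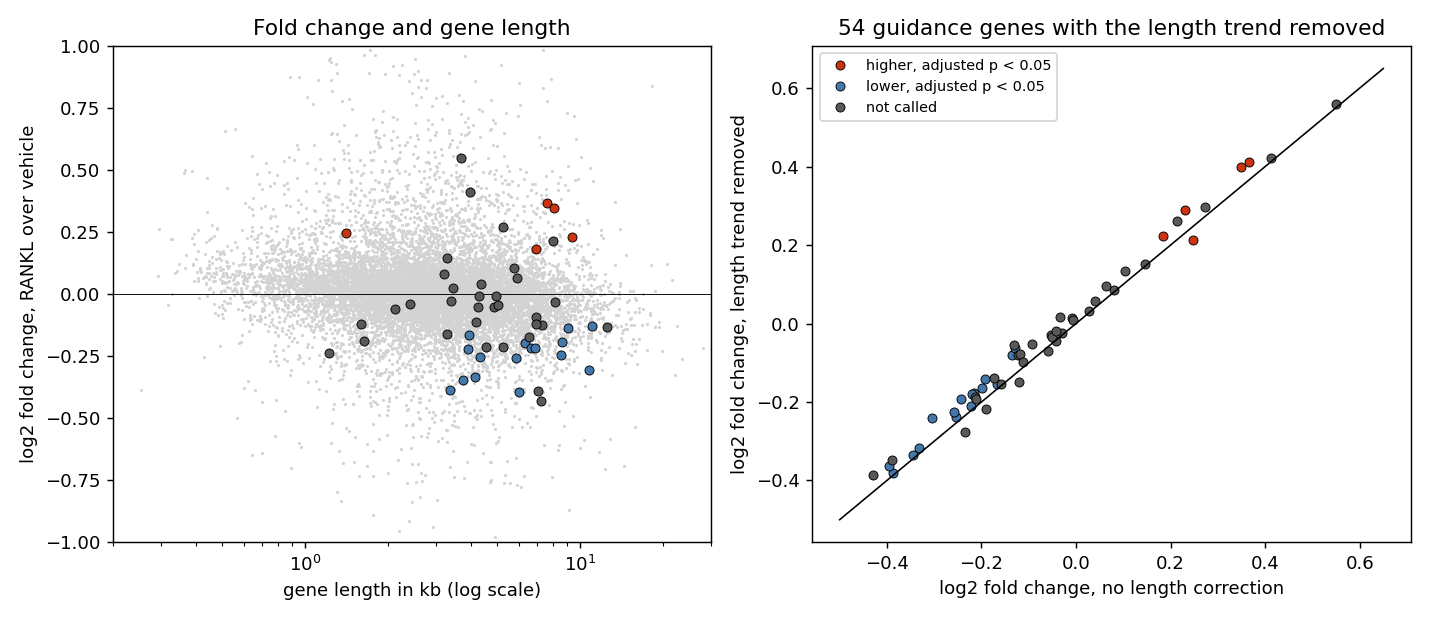
Left, log2 fold change (y axis) against gene length in kb (x axis, log scale) for all genes (light grey, 85 of them outside the plotted range) and the 54 guidance genes (red rose, blue fell, dark grey not called). Right, log2 fold change of the guidance genes with the length trend removed (y axis) against that without correction (x axis), with the line of equality and the same colours. Most points on the right lie a little above the line.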

How the data were processed

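RNA was sequenced from 3 RANKL and 3 vehicle libraries in paired ends on an Illumina HiSeq, extracted and sequenced at one time per the labels' protocols. The submitters' processing notes name FastQC, STAR, edgeR and mm10; the read counter, annotation and strand setting were not stated in the sources used. The authors deposited raw counts for 12625 symbols, with 4708 blank lines left out here. Every gene's third-highest library had at least 0.4995 CPM. The authors also deposited log2 values, which equal edgeR's log2 RPKM (TMM, prior count 2) to within an SD over libraries of 0.00187, and so yield the gene lengths.

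The main test was edgeR 4.0.16 (R 4.3.3) with TMM scaling, filterByExpr and the quasi-likelihood F test on the counts, Benjamini-Hochberg adjusted over all genes. Standard errors are the log2 fold change over the square root of F. Trends on length or GC content were natural splines with 5 degrees of freedom per library, and GC content and positions came from GENCODE M21 (12176 symbols matched directly, 377 by an older name). Promoter stretches are RefSeq's. Alternatives were other scalings and filters, DESeq2 1.42.0, limma 3.58.1, the replicate block and leaving out each library. Only the main test and the length correction were run on simulated counts. Those counts held no trend on length, so they could not show whether the correction removes one. Values per library were given for called genes and, per family, the highest per length; from each other list, up to 2 called genes by smallest p; a few others were added after their values were seen. A further list is not reported here. The members and lists were chosen with earlier results of these data known.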

Additional observations from a re-analysis of the deposited data

How the results depend on the processing

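Of the 21 called guidance genes, 11 were called in each of 17 alternatives, and of the 33 others 9 were called in at least 1 and 24 in none. The alternative without a filter on low counts kept the same 12625 genes as the main test, so it could not differ from it. The share of all genes called in every alternative was not counted. Over all genes, 1070 rose and 626 fell with total count scaling, and leaving out 1 library gave 373 to 746 higher and 537 to 880 lower genes. Among guidance genes, 9 fell with total count scaling, 10 with DESeq2 and 8 with limma-trend on the deposited log2 values, where 3 rose. Leaving out 1 library gave 3 to 6 higher and 8 to 15 lower guidance genes. The cause of these moves was not tested, although fewer libraries enter the latter.

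The groups share replicate numbers. Deviations of same-numbered libraries had correlations of 0.069, 0.037 and 0.018, below the 0.1 set for a pairing, though every library correlated best with its own number. With the replicate block 730 genes rose and 1008 fell, and among guidance genes 5 and 18, Sema4d and Sema6a being called as well, and with the length trend removed as well 963 and 1060, and 6 and 13.

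The sign turned for 9 uncalled genes near 0 (log2 values). With total count scaling Sema3c stood at 0.022, Sema3f at 0.0016 and Sema4c at 0.024. With the length trend removed Nrp2 stood at 0.016, Sema3c at 0.013 and Sema4c at 0.0081, and with the block added at 0.014, 0.014 and 0.0087. With the GC trend removed Sema3f stood at 0.027, Sema4c at 0.043 and Sema4f at 0.0090. Leaving out 1 library gave -0.14 to 0.053 for Efna2, -0.21 to 0.25 for Efnb3, -0.14 to 0.028 for Ephb2, -0.060 to 0.022 for Nrp2, -0.032 to 0.022 for Sema3c, -0.11 to 0.026 for Sema3f, -0.23 to 0.21 for Sema4a, -0.030 to 0.022 for Sema4c and -0.16 to 0.033 for Sema4f. Depth limits Sema4a, Efnb3 and Epha3, with 11 to 25 counts per library.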
